A study of Mus musculus with 6 samples.

Results

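The genes described are 10 receptor genes of natural killer (NK) cells, taken by symbol from the 31253 genes of the deposited tables: 4 Ly49 genes (Klra1, Klra4, Klra7, Klra8), Klrb1c, Klrc1, Klrd1, Klre1, Klrk1 and Ncr1. All 10 were found and all are accounted for. The study profiled dissociated whole livers of mice by droplet-based 3′ single-cell RNA sequencing, which counts unique molecular identifiers (UMIs, 1 per captured transcript). Its groups were Sting fl/fl Cdh5-Cre+ mice (n = 3, called knockout) and littermate Sting fl/fl Cdh5-Cre- mice (n = 3, called control). Mice of both groups carried the floxed Sting alleles, were kept on chow to 8 weeks of age and then received a western diet with carbon tetrachloride for 12 weeks, a model of metabolic dysfunction-associated steatohepatitis. Cdh5-Cre is an endothelial driver, so the comparison asks how lymphocyte receptors differ in livers whose endothelium was meant to lose STING.

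The labels name the cells as liver sinusoidal endothelial cells, while of 41744 cells kept only 2642 were endothelial-like and 19538 were T, NK or related cells. The targeted gene, Sting1, was counted at 27.3, 26.5 and 27.0 CPM (the UMIs of a gene per 1000000 UMIs) in endothelial-like cells of the controls and at 22.2, 14.99 and 22.0 CPM in those of the knockouts. The groups did not overlap, as was the case for 13.8% of 12220 genes tested there, but the log2 fold change of -0.48 (SE 0.179) had an adjusted p of 0.751 by edgeR, which called 0% of these genes. The counted 3′ end may lie outside the deleted part, so this count does not check the deletion fully. Among the classes described below, Sting1 was 18.1 ± 2.52 CPM (SD, n = 3) in control and 10.9 ± 1.23 CPM in knockout ILC1-like cells, also without overlap (edgeR adjusted p = 0.474). Whether the Cre acted in lymphocytes was not tested.

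NK receptors of the killer cell lectin-like families sit on NK cells, type 1 innate lymphoid cells (ILC1) and some T cells, and the balance of inhibitory and activating members sets whether the cell attacks. Klra1 (Ly49A) and Klra7 (Ly49G) encode inhibitory receptors for classical MHC class I molecules, while Klra4 (Ly49D) and Klra8 (Ly49H) encode activating receptors that signal through the adaptor DAP12 (Tyrobp). NKG2A (Klrc1) pairs with CD94 (Klrd1) in an inhibitory receptor for Qa-1 (H2-T23). NKG2D (Klrk1) is an activating receptor for stress-induced ligands, Klrb1c encodes the marker NK1.1, Klre1 pairs with Klri1 or Klri2, and Ncr1 encodes the activating receptor NKp46. Ly49 genes are known to be switched on in a variegated way, each in a part of the NK cells.

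In the GRCm38 assembly (GENCODE annotation), 9 of the 10 genes lie in a block of 1.61 Mb on chromosome 6, in the order Klrb1c (chr6:128778485-128789215, minus strand), Klre1 (chr6:129577905-129585827, plus), Klrd1 (chr6:129591782-129598775, plus), Klrk1 (chr6:129610323-129623864, minus), Klrc1 (chr6:129666015-129678973, minus), Klra4 (chr6:130043731-130067271, minus), Klra8 (chr6:130115226-130129898, minus), Klra7 (chr6:130218605-130233322, minus) and Klra1 (chr6:130363917-130386874, minus). Ncr1 lies apart on chromosome 7 (chr7:4337724-4345164, plus). The Ly49 genes are close copies of one another, so it was checked whether 3′ reads could be shared. Of the 90-base windows in the last 500 bases of each transcript, none of Klra1, Klra4, Klra8, Klrd1, Klre1, Klrk1 or Ncr1 was found in another gene. For Klrc1, 21.9% of windows were also in Klrc2, for Klrb1c 11.4% were in Klrb1a or Gm44511, and for Klra7 6.57% were in Klra13-ps. Counts of these 3 genes are therefore uncertain, since the counting could drop or split such reads. The share of windows does not give the share of reads affected, which was not measured.

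The promoters of the 4 Ly49 genes and of Ncr1 are shown because the levels of these genes differed most between cell classes: Klra4 and Klra8 were nearly restricted to NK-like cells, Klra7 and Klra1 were not, and Ncr1 was highest in ILC1-like cells. Each is 300 bases, from 250 before to 50 after a RefSeq start (GRCm38.p6), written 5′ to 3′ along the gene's strand. Capitals mark matches, on either strand, to a Runx core (TGTGGT), a T-box site (GGTGTGA) or a TCF site (CTTTGAT).
Klra4 promoter, chr6:130067222-130067521, minus strand: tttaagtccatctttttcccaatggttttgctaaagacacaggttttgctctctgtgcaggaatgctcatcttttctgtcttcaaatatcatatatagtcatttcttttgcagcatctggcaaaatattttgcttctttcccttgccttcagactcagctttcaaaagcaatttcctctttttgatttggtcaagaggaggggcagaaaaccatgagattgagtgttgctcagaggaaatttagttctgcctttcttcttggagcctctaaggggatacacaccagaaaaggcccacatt
Klra8 promoter, chr6:130129849-130130148, minus strand: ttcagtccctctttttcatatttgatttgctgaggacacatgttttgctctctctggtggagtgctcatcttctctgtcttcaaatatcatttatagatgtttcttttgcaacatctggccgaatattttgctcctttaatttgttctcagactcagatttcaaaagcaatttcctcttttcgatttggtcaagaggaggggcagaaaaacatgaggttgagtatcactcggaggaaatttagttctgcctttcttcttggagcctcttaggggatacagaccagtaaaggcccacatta
Klra7 promoter, chr6:130233273-130233572, minus strand: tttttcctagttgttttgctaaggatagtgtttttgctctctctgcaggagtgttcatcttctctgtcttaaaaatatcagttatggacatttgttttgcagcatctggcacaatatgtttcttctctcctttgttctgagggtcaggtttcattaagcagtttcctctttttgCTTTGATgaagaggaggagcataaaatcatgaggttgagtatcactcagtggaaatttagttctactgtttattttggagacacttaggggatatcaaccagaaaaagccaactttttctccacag
Klra1 promoter, chr6:130386825-130387124, minus strand: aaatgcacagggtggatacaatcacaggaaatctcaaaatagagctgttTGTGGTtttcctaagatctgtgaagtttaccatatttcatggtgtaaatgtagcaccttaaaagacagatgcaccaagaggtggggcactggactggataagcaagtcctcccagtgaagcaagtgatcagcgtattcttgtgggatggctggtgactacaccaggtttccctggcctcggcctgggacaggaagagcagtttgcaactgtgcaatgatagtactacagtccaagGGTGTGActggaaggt
Ncr1 promoter, chr7:4337465-4337764, plus strand: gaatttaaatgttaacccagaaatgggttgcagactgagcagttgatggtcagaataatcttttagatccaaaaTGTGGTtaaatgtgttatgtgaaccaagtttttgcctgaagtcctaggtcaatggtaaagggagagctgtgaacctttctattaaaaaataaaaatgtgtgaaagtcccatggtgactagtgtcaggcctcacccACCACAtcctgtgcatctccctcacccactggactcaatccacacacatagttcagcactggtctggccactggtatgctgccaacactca

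Over these windows, Klra4 and Klra8 were 86.1% identical. The window at a second Klra8 start, not shown, overlaps the first in position. It was 65.3% identical to the first and 57.7% identical to Klra4. The Klra7 window at the second of its starts was 74.7% identical to Klra4 and 75.8% identical to Klra8, and Klra1 was 48.3% identical to Klra4 and 47.3% to Klra8. The Klra4 and Klra8 windows held no match to the 3 motifs or to a STAT palindrome (TTCNNNGAA). Klra1 held 1 Runx and 1 T-box match, Klra7 held 1 TCF match, and Ncr1 held 2 Runx matches. The window at the first Klra7 start, not shown, held 2 STAT palindromes and none of the 3 motifs, and was 49.7% identical to Klra4 and 48.5% to Klra8. Of 32851 RefSeq promoters of the same length, 16.8% held the Runx core, 3.98% the T-box site, 3.73% the TCF site and 8.3% the STAT palindrome, so a match is a description of letters and not a site.

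Cell classes were built without the Klr genes and Ncr1 (28 genes in all), so that receptor levels did not define them, and were named from other markers. NK-like cells (494 cells, 41 to 121 per library) had low Cd3e and carried Eomes (308.7 CPM, mean of 6 libraries), the NK transcription factor, with Itga2 and Prf1. ILC1-like cells (2043 cells, 191 to 504 per library) had low Cd3e and little Eomes (12.0 CPM) but carried Itga1, Cxcr6 and Tmem176b at 79.2, 136.8 and 236 CPM, against 7.47, 4.33 and 7.85 CPM in NK-like cells. The gamma-delta-like class (361 cells) was of the IL-17 type, with Il17a, Cd163l1 and Trdc. The NKT-like class (1290 cells) had a Zbtb16 UMI in 82.3% of its cells, and the CD8 T-like class (4716 cells) a Cd8b1 UMI in 68.3%. A pair of T cell clusters left unnamed by the rules was added after their values were seen. They had the highest share of cells with a Klra1 or Klra7 UMI among the unnamed clusters with Cd3 transcripts in at least 80% of cells and at most 50% of cells from 1 library. T cluster 16 (634 cells) had a Trdc UMI in 32.5% and a Trac UMI in 56.6% of its cells, and the Styk1 T cluster (314 cells) carried Styk1 and Zbtb16. The Styk1 T cluster met the marker thresholds of the NKT-like class. It had Cd3 transcripts in 93.0%, Zbtb16 in 44.9% and Trdc in 2.55% of its cells. It was left unnamed because its leading genes held 0 NKT markers and 1 marker of another class.

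Over the libraries, the deposited matrices held 55017937 to 73867890 UMIs in 5133 to 9212 barcodes with median depths of 4695.5 to 7345 UMIs. Between 0.097% and 0.328% of barcodes were shared by any pair of libraries. Class levels are given as CPM, the UMIs of a gene per 1000000 UMIs of that class in that library, and are compared only within a gene, since 3′ counts do not rank genes against each other. The level of a class cannot tell fewer cells with the transcript from less transcript per cell, so shares of cells are given too. In B-like cells, which should lack these receptors, 9 of the 10 genes were at 1.21 CPM or less, which is taken as a lower measure of their background. Klra1 was at 2.26 CPM there, with 97 UMIs against 1 each for Klra4 and Klra7, so its level in B-like cells is not taken as a background. In endothelial-like cells, Klrk1 was at 7.89, Klrd1 at 5.41, Klre1 at 2.94 and Klrc1 at 2.70 CPM. Of the receptor genes, Klra1 alone was lower in endothelial-like than in B-like cells, at 0.128 CPM.

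The activating Ly49 genes were close to restricted to NK-like cells. Klra4 stood at 537, 343 and 430 CPM in NK-like cells of control 1, 2 and 3 and at 366, 538 and 385 CPM in those of knockout 1, 2 and 3. The next class, T cluster 16, had a mean of 2.62 CPM, and no library of any other class reached the NK-like range. Klra8 stood at 488, 494 and 466 CPM in control and 357, 369 and 378 CPM in knockout NK-like cells, against a mean of 5.50 CPM in ILC1-like cells. Of all UMIs in kept cells, 81.8% of those of Klra4 and 83.3% of those of Klra8 were in the NK-like class, which held 1.21% ± 0.344 (SD, n = 3) of control cells and 1.11% ± 0.163 of knockout cells. No UMI of either gene was counted in 1290 NKT-like cells, which allows a share of up to 0.233% of cells with a UMI and sets no limit on cells that express the gene without one. Against 3 counts over that class, the pooled NK-like level was at least 1197-fold higher for Klra4 and at least 1152-fold higher for Klra8. These limits hold for the clustered NKT-like class only. With classes gated on transcripts, Klra4 averaged 379.9 CPM in NK-like, 16.4 CPM in ILC1-like, 9.54 CPM in gamma-delta-like and 2.62 CPM in NKT-like cells. Klra8 averaged 342, 19.5, 10.7 and 0.834 CPM in the same gated classes. For both genes the gap between NK-like cells and every other class was far larger than the spread between mice.

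The inhibitory Ly49 genes were also counted in T cells, among them T cluster 16 and the Styk1 T cluster. These clusters were added because of their Klra1 or Klra7 UMIs, so their high levels of both genes follow from that choice. Klra7 averaged 173.7 ± 56.9 CPM (SD, n = 6) in NK-like cells, 116.4 ± 35.6 CPM in T cluster 16 and 50.4 ± 18.9 CPM in the Styk1 T cluster. The ranges of NK-like cells and T cluster 16 overlapped, although Klra7 was higher in NK-like cells in 6 of 6 mice. It fell to 12.2 CPM in ILC1-like, 11.7 CPM in NKT-like and 2.85 CPM in CD8 T-like cells. Among the classes named by rule, Klra1 was highest in NK-like cells. With the added clusters the order was 86.1 ± 24.7 CPM in T cluster 16, 51.1 ± 44.0 CPM in the Styk1 T cluster, 36.0 ± 9.53 CPM in NK-like cells and 20.6 ± 7.31 CPM in NKT-like cells. Neighbours in that order overlapped, and T cluster 16 was above the Styk1 T cluster in 5 of 6 mice. Of the Klra1 UMIs, 29.5% were in T cluster 16 and 8.56% in the NK-like class. Neither gene had a UMI in 361 gamma-delta-like cells, which allows a share of cells with a UMI of up to 0.831%. Klra1 was at 1.37 CPM in CD8 T-like cells, between the 0.128 CPM of endothelial-like and the 2.26 CPM of B-like cells. No background is set for this gene.

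Within T cluster 16, Ly49 transcripts were found beside either type of T cell receptor constant chain. Among cells with a Trdc UMI and no Trac UMI, 31 of 171 had a UMI of 1 of the 4 Ly49 genes (thinned to 2000 UMIs per cell), and among cells with a Trac UMI and no Trdc UMI, 78 of 328 had one. Per library the shares had a median of 17.3% (9.68% to 25.0%) and 22.4% (15.2% to 36.8%), which overlapped. Gating gamma-delta cells by a Cd3 and a Trdc UMI instead of by cluster gave 891 cells, with Klra1 at 33.7 CPM and Klra7 at 29.2 CPM where the gamma-delta-like cluster had none.

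The lineage receptors Ncr1 and Klrb1c were highest in ILC1-like cells. Ncr1 stood at 297, 286 and 501 CPM in control and 538, 285 and 368 CPM in knockout ILC1-like cells, and at 83.2, 114 and 297 CPM in control and 206, 90.3 and 155 CPM in knockout NK-like cells. Control 3 and knockout 1 were the highest in both classes, and also in T cluster 16, where they had 108 and 49.3 CPM against 5.45 to 20.9 CPM in the other libraries. Control 3 was the library with the fewest and deepest barcodes, and its part in this was not tested. Ncr1 was higher in ILC1-like than in NK-like cells in 6 of 6 mice although the ranges of the classes overlapped, and 77.1% of its UMIs were in the ILC1-like class. Klrb1c averaged 303.1 ± 31.5 CPM in ILC1-like and 189.5 ± 32.4 CPM in NK-like cells, with no overlap between the classes, then 114.1 ± 28.4 CPM in the Styk1 T cluster and 94.4 ± 34.6 CPM in NKT-like cells. It was at 5.13 CPM in CD8 T-like cells.

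Klrc1 also led in ILC1-like cells, at 374.7 ± 42.8 CPM, without overlap with T cluster 16, whose 6 libraries had 115.9 to 203.1 CPM. NK-like cells (116.6 ± 25.1 CPM), NKT-like cells (91.3 ± 23.5 CPM) and CD8 T-like cells (87.9 ± 25.9 CPM) followed with overlapping ranges. Its partner Klrd1 differed less between the innate classes, with 368 ± 51.4 CPM in ILC1-like and 305.5 ± 50.7 CPM in NK-like cells, higher in ILC1-like cells in 6 of 6 mice but with overlapping ranges. Klre1 had the reverse order, with 389.4 ± 74.9 CPM in NK-like and 297.7 ± 45.8 CPM in ILC1-like cells, again in 6 of 6 mice and with overlap. Klre1 then fell from 123.3 CPM in the Styk1 T cluster to 49.0 CPM in NKT-like and 28.4 CPM in CD8 T-like cells, steps without overlap. Klrk1 was the most widely spread of the receptors. It was at 606.5 ± 39.2 CPM in ILC1-like cells, without overlap with NK-like cells at 409.9 ± 47.0 CPM, and remained at 162.7 ± 44.1 CPM in gamma-delta-like and 158 ± 49.3 CPM in CD8 T-like cells.

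**Figure D1:**
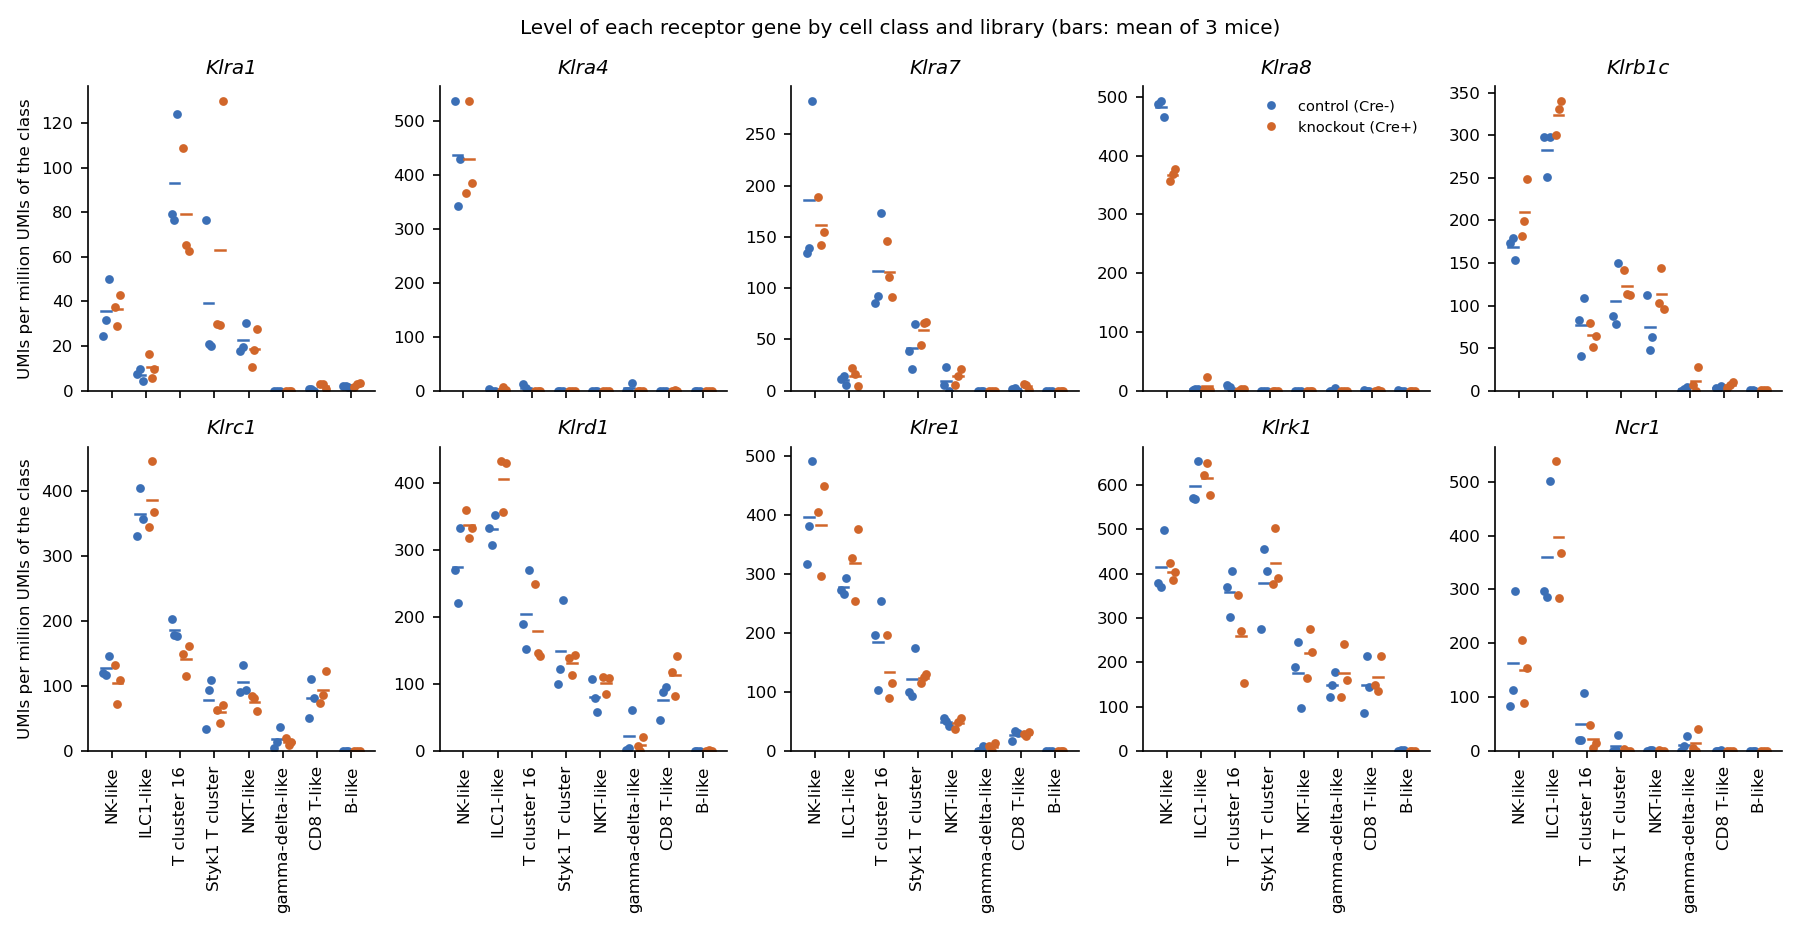
Level of each receptor gene (vertical axis, UMIs per 1000000 UMIs of the class) in 5 cell classes, T cluster 16, the Styk1 T cluster and B-like cells. Each point is 1 library and each bar the mean of 3 mice. Klra4 and Klra8 stand above the baseline in NK-like cells alone among these classes. Klra1 is highest in T cluster 16 (mean 86.1 CPM), a cluster added because of its Klra1 or Klra7 UMIs.

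ILC1-like cells fell into 2 clusters that differed in nearly the whole receptor set. Cluster 15 (651 cells) had Ncr1 at 684, Klrd1 at 580, Klre1 at 446, Klrk1 at 864, Klrb1c at 411 and Klrc1 at 463 CPM. Cluster 0 (1392 cells) had the same genes at 251, 277, 237, 494, 258 and 335 CPM. This is a description with no test, since clusters are cut from the same cells, although these genes were left out of the clustering. Of the Ly49 genes, Klra1 was at 23.1 CPM in cluster 15 and 2.73 CPM in cluster 0, and Klra7 at 27.1 and 5.78 CPM. The Klra1 range of cluster 15 (11.6 to 35.3 CPM) overlapped that of NK-like cells (24.5 to 50.1 CPM). Klra4 and Klra8 averaged 7.47 CPM or less in both clusters.

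**Figure D2:**
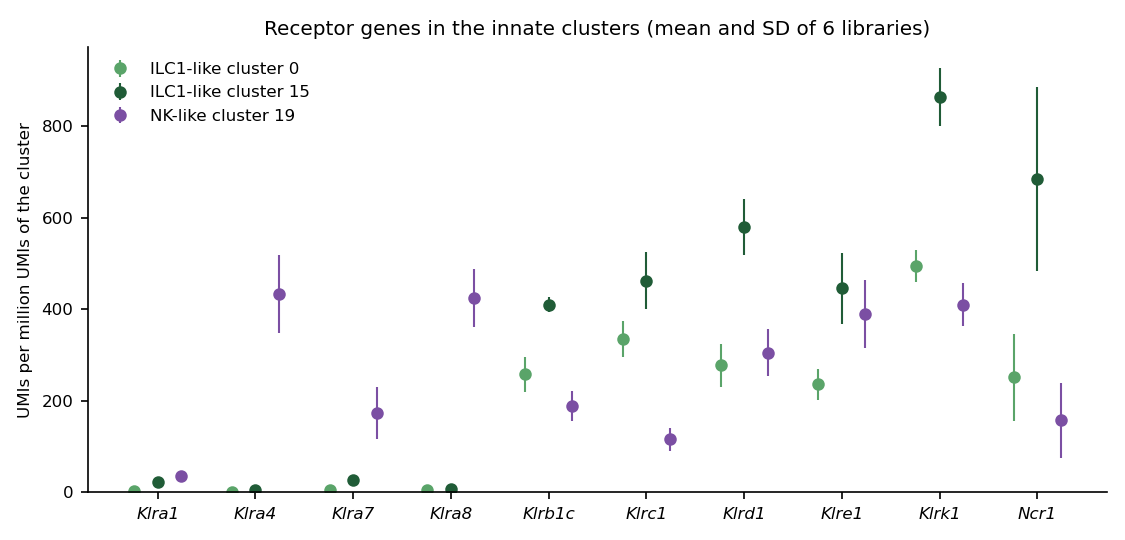
Mean level and SD over 6 libraries (vertical axis, UMIs per 1000000 UMIs of the cluster) of the 10 receptor genes in the 2 ILC1-like clusters and the NK-like cluster. Cluster 15 lies above cluster 0 for the 6 receptors other than Ly49, and Klra4, Klra7 and Klra8 separate the NK-like cluster from both.

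Receptor combinations were read in cells thinned to 2000 UMIs each, leaving 471 NK-like and 1944 ILC1-like cells. The cut left out 20 of 270 control and 3 of 224 knockout NK-like cells, and 78 of 1191 control and 21 of 852 knockout ILC1-like cells. At this depth 67.3% ± 4.35 (SD, n = 6) of NK-like cells had a UMI of at least 1 of the 4 Ly49 genes, against 0.478% ± 0.293 of B-like cells. None of the 4 genes was detected in 32.7% of NK-like cells, 1 in 37.3%, 2 in 23.8%, 3 in 6.04% and all 4 in 0.139%. With every UMI counted, the share with any of them was 78.5% ± 4.03 in control and 80.3% ± 1.32 in knockout NK-like cells (n = 3 each). In the clusters added because of their Klra1 or Klra7 UMIs, the shares with any Ly49 gene were 23.1% ± 4.92 (T cluster 16) and 14.8% ± 5.98 (Styk1 T cluster). The share was 4.05% ± 1.84 in NKT-like and 2.58% ± 1.27 in ILC1-like cells. That of CD8 T-like cells was 0.536% ± 0.327, close to the share in B-like cells, where most of the UMIs of these genes were of Klra1.

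**Figure D3:**
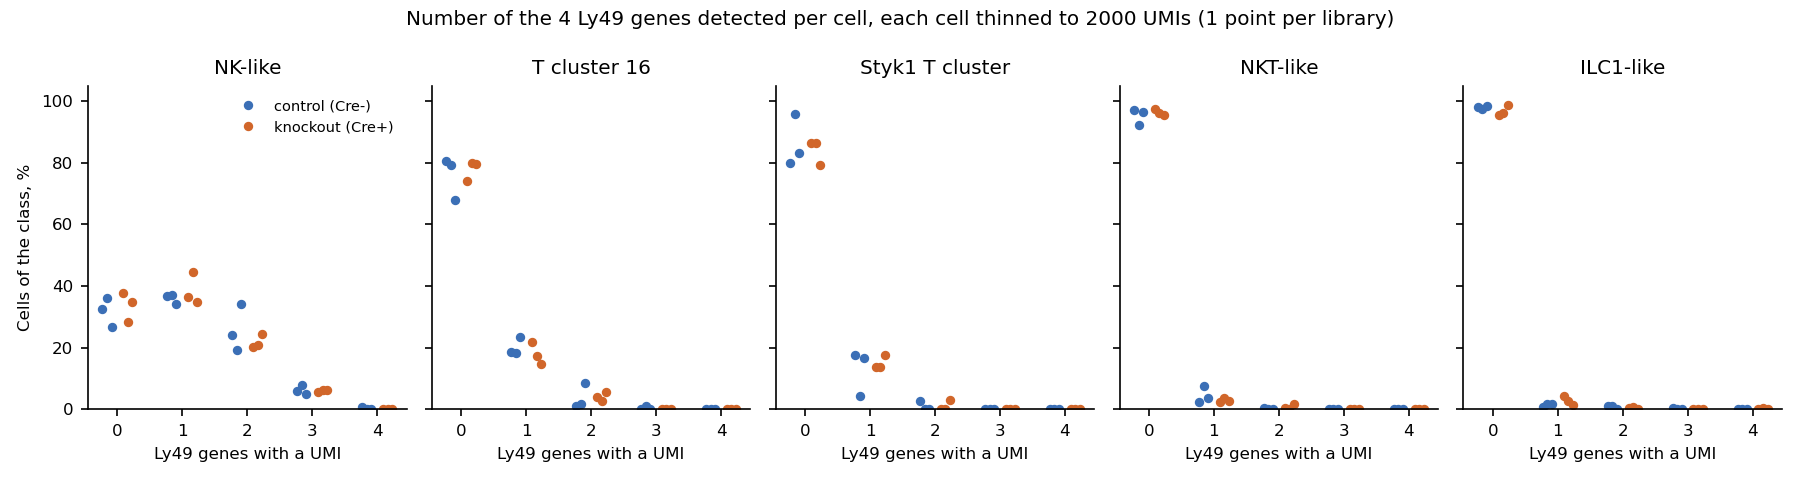
Share of cells (vertical axis, %) with a UMI of 0, 1, 2, 3 or 4 of the 4 Ly49 genes (horizontal axis), after thinning each cell to 2000 UMIs, with 1 point per library. NK-like cells spread over 0 to 3 genes in all 6 libraries, while most cells of the other classes have none.

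Within NK-like cells, some pairs among the Ly49 genes and Klrc1 departed from the product of their shares and others did not. Klra4 and Klra8 were found in the same cell in 92 of 471 cells (19.5%), against 15.3% for the product of their shares. The pooled odds ratio was 2.08, and it was above 1 in 6 of 6 libraries (1.19 to 4.20). In contrast, Klra4 and Klrc1 shared 16 cells (3.40%, product 6.69%), with an odds ratio of 0.337 that was below 1 in 6 of 6 libraries (0.205 to 0.544). Klra8 and Klrc1 had an odds ratio of 0.536, but single libraries ranged from 0.103 to 3.05, and Klrc1 and Klrd1 had one of 0.787 (0.477 to 1.25). Inhibitory and activating Ly49 genes were found together in 15.6% ± 4.26 of NK-like cells. Klra4 with Klra7 had an odds ratio of 1.00 and Klra7 with Klrc1 one of 0.927, each above 1 in 3 of 6 libraries. These ratios come from cells of the same libraries at low counts and carry no test.

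In CD8 T-like and NKT-like cells, Klrc1 and Klrd1 were found together more often than the product of their shares. The odds ratio was 2.72 in CD8 T-like cells (151 of 4464 cells with both) and 2.45 in NKT-like cells (39 of 1249), above 1 in 6 of 6 libraries each. Klrc1 and Klrk1 had an odds ratio of 3.79 in CD8 T-like cells (2.65 to 4.20 over libraries). The NKT-like class was a single cluster, but the CD8 T-like class pools clusters of unlike levels. Klrc1, Klrd1 and Klrk1 were at 37.9, 43.1 and 34.2 CPM in its cluster 8 and at 168.1, 163.7 and 243.7 CPM in its cluster 7. The CD8 T-like ratios cannot tell such mixing from pairing within a cluster, which was not tested. In ILC1-like cells, Klrc1 and Klrd1 were both detected in 411 of 1944 cells (21.1%, product 19.96%), with an odds ratio of 1.21 that was above 1 in 4 of 6 libraries. The ratio was 1.13 in T cluster 16 (0.560 to 2.05 over libraries) and 0.705 in the Styk1 T cluster (0.187 to 1.69). In ILC1-like cells Klrd1 had odds ratios of 1.75 with Klre1 and 1.73 with Ncr1, above 1 in 6 of 6 libraries. This class also pools clusters of unlike levels. Klrd1, Klre1 and Ncr1 were at 277, 237 and 251 CPM in the larger ILC1-like cluster and at 580, 446 and 684 CPM in the smaller. The ILC1-like ratios therefore cannot tell such mixing from pairing within a cluster either, and this was not tested.

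No receptor gene passed the test between knockout and control in any class (edgeR quasi-likelihood, summed UMIs per mouse, Benjamini-Hochberg over all genes tested). In NK-like cells all 10 genes passed the filter on low counts and 0 were called, where 0% of 5611 genes were called. An unadjusted p under 0.05 was found for 1 of the 10 and for 5.7% of all genes (320 genes), and DESeq2 called 0 of the 10 and 1 gene in all. Knockout and control libraries did not overlap for 2 of the 10, against 10.4% of all genes tested. Over the 10 genes the log2 fold changes had a median of -0.04, with 3 above and 7 below 0.

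Klra8 was the gene with the smallest p in NK-like cells. The 3 knockout libraries (357, 369 and 378 CPM) all lay below the 3 control libraries (488, 494 and 466 CPM), a log2 fold change of -0.41 (SE 0.155). The edgeR p was 0.0153 before and 0.76 after adjustment. Klrb1c was the other gene without overlap, at 174, 179 and 154 CPM in control and 182, 200 and 248 CPM in knockout NK-like cells. Its log2 fold change was 0.28 (SE 0.188, edgeR adjusted p = 0.971), and it moved to 0.15 without knockout 3 and to 0.03 when NK cells were gated by Eomes and Cd3 transcripts. The other 8 genes overlapped between groups. They ranged from -0.29 for Klrc1 (128.1 ± 16.3 against 105.1 ± 30.2 CPM, n = 3 each) to 0.29 for Klrd1 (274.8 ± 56.1 against 336.2 ± 21.5 CPM). With 1 library left out, Klrc1 ran from -0.54 (without knockout 1) to -0.043 (without knockout 2) and Klrd1 from 0.14 (without control 2) to 0.42 (without control 3). Klra4, Klra7, Klre1, Klrk1 and Ncr1 were between -0.14 and -0.02, and Klra1 was 0.12, values smaller than their standard errors. Summed levels of the 7 marker and stress lists checked beside them, of B, endothelial, neutrophil, monocyte or macrophage, hepatocyte, T cell and dissociation stress genes, overlapped between groups in NK-like cells.

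ILC1-like cells gave 8 genes past the filter, all with a log2 fold change above 0 and a median of 0.16. None was called, where 0.0215% of 9283 genes were called. An unadjusted p under 0.05 was found for 0 of the 8 against 7.77% of all genes (721 genes), and DESeq2 called 0 of the 8 and 20 genes in all. Libraries did not overlap for 2 of the 8, against 12.5% of all genes, and both were higher in the knockout, as 7.75% of all genes were. Klrd1 was at 332, 307 and 352 CPM in control and 432, 356 and 429 CPM in knockout cells, so that every knockout library was above every control library. The log2 fold change was 0.26 (SE 0.132) with an edgeR p of 0.0671, adjusted to 0.683. It was 0.29 in ILC1-like cluster 0 and 0.06 in cluster 15. Klrb1c, at 299, 251 and 298 against 300, 331 and 341 CPM, had a log2 fold change of 0.15 (SE 0.122), which was -0.09 in cluster 15 alone. It was 0.05 without control 2. Klrc1, Klre1, Klrk1 and Ncr1 were 0.04, 0.16, 0.00 and 0.12 with overlapping libraries. The largest log2 fold changes of the 8 were those of the low Ly49 genes Klra1 (0.53, SE 0.394, 7.09 ± 2.60 against 10.6 ± 5.61 CPM) and Klra7 (0.45, SE 0.419, 10.07 ± 4.53 against 14.4 ± 8.69 CPM), whose libraries overlapped. Klra4 and Klra8 did not pass the filter in this class.

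Beside these ILC1-like values, the summed level of 20 dissociation stress genes was lower in the knockout without overlap (30390 to 33860 against 24290 to 28650 CPM), with 16 of 20 genes lower. The 10 endothelial markers summed to 238.1 to 265.7 CPM in control and 185.3 to 204.8 CPM in knockout, and the 9 T cell markers to 650.9 to 756.3 and 773.6 to 978 CPM. None of these endothelial or T cell markers was at 0. The part of these differences in the receptor values was not tested.

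Whether a genotype difference itself differed between NK-like and ILC1-like cells was tested as an interaction, with the mouse as a block. None of the 10 genes was called, where 0.0236% of 8485 genes were called and 468 genes had an unadjusted p under 0.05. For Klra8 the NK-like minus ILC1-like difference was -1.97 (SE 1.40, edgeR adjusted p = 0.954), resting on few ILC1-like UMIs. For Klrc1 it was -0.36 (SE 0.235, edgeR adjusted p = 0.949).

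Among the receptor genes that passed the filter in the T cell classes, Klrc1 was the one whose groups separated, in NKT-like cells and in T cluster 16. In NKT-like cells it was at 91.7, 133 and 93.9 CPM in control and 84.6, 82.3 and 61.8 CPM in knockout libraries. The log2 fold change was -0.45 (SE 0.195, edgeR adjusted p = 0.91), but it was -0.29 without control 2 and turned to 0.24 when NKT cells were gated by Zbtb16 and Cd3 transcripts. It was 1 of 7 genes past the filter without overlap, against 10.5% of all genes, and 0 of the 7 were called (0% of 8197 genes, 5.08% by unadjusted p under 0.05, DESeq2 3 genes in all and 0 of the 7). Hepatocyte markers summed to 2.66 to 5.08 CPM in control and 5.26 to 15.4 CPM in knockout NKT-like cells, and their part was not tested. In T cluster 16 Klrc1 was at 203, 178 and 176 CPM in control and 149, 116 and 161 CPM in knockout libraries, again without overlap. That log2 fold change was -0.40 (SE 0.187, edgeR adjusted p = 0.952), and it was -0.25 without knockout 2. It was 1 of 8 genes there, against 10.2% of all genes, and 0 were called (0% of 6572 genes, 5.22% by unadjusted p under 0.05, DESeq2 0). Beside it, summed endothelial (99.4 to 126.9 against 135.6 to 237.2 CPM) and monocyte or macrophage markers (309.5 to 421 against 436.3 to 533 CPM) were higher in the knockout and the stress genes lower, each without overlap, and their part was not tested. Of the monocyte or macrophage list, 7 of 11 genes were at 0.

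In CD8 T-like cells 6 genes passed the filter, 0 of them without overlap (9.89% of all genes) and 0 called (0% of 10043 genes, 5.14% by unadjusted p under 0.05, DESeq2 5 in all and 0 of the 6). Klrd1 there was at 46.9, 88.7 and 95.4 CPM in control and 118, 82.3 and 143 CPM in knockout libraries, a log2 fold change of 0.61 (SE 0.30, edgeR adjusted p = 0.943). With 1 library left out it was between 0.32 (without control 1) and 0.83 (without knockout 2), and without the CD8 T-like clusters of which over 60% of cells came from 1 library it was 0.37. Klra1 did not pass the filter there, and its few UMIs (33 in all) gave 0.715, 0.735 and 0 CPM in control and 2.81, 3.01 and 0.969 CPM in knockout libraries, without overlap. Beside these values the dissociation stress genes summed to 24800 to 26610 CPM in control and 19150 to 24350 CPM in knockout CD8 T-like cells, and their part was not tested. Klrk1 alone passed the filter in gamma-delta-like cells, at 150.2 ± 27.3 CPM in control and 175.2 ± 60.3 CPM in knockout (n = 3 each, log2 fold change 0.17, edgeR adjusted p = 0.968). It overlapped (10.6% of all genes did not) and was not called, where 0.0627% of 4788 genes were called and 4.59% had an unadjusted p under 0.05. In these cells the stress genes summed to 35090 to 36620 CPM in control and 23660 to 28080 CPM in knockout, with 19 of 20 lower. Hepatocyte markers summed to 2.42 to 15.1 CPM in control and 19.2 to 36.4 CPM in knockout. The part of either was not tested. The Styk1 T cluster had 6 genes past the filter, with 0 called (0% of 4048 genes, 5.51% by unadjusted p under 0.05) and 0 without overlap (10.6%), and the median of their log2 fold changes was 0.10.

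**Figure D4:**
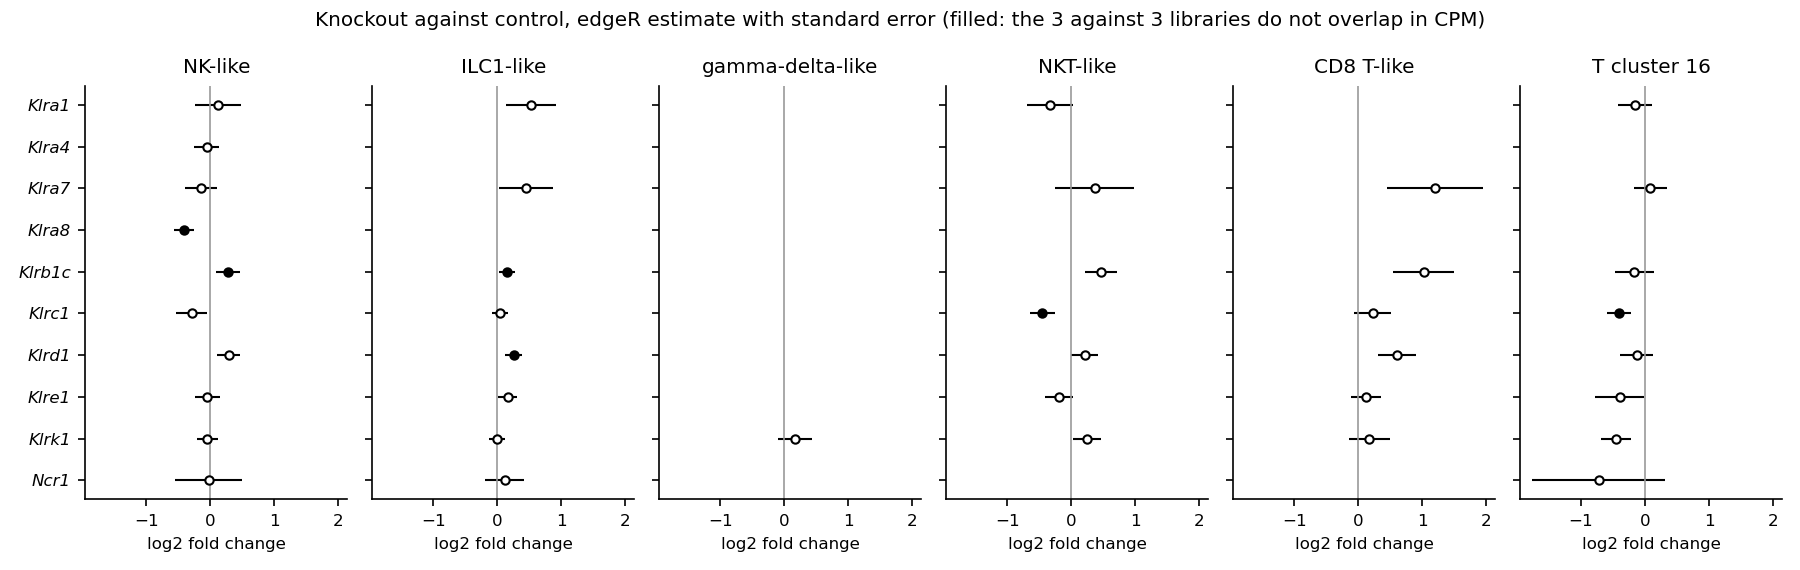
Log2 fold change of knockout against control (horizontal axis, edgeR estimate with standard error as line) for each receptor gene that passed the filter in 5 cell classes and T cluster 16. Filled points are genes whose 3 knockout and 3 control libraries do not overlap in CPM: Klra8 and Klrb1c in NK-like, Klrb1c and Klrd1 in ILC1-like, Klrc1 in NKT-like cells and in T cluster 16.

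Shares of cells with a combination were compared over mice by exact permutation tests, which with 3 against 3 cannot go below p = 0.1, over 42 comparisons that all had an adjusted p of 1. Libraries did not overlap in 4 of the 42. With 3 against 3 libraries, such a separation has a probability of 0.1 without any group difference, so this count is not read as a result. The share of NK-like cells with any Ly49 gene was 68.2% ± 4.61 in control and 66.3% ± 4.83 in knockout (n = 3 each), and that with neither Klrc1 nor Ly49 was 23.8% in both. Klrc1 together with any Ly49 gene was found in 12.5%, 7.87% and 14.6% of control and 6.76%, 4.94% and 6.06% of knockout NK-like cells, without overlap (41 cells in all, exact p = 0.1). With all UMIs the shares were 20.8% ± 5.21 and 19.7% ± 4.99, and after thinning to 1000 UMIs 3.21% and 3.16%, both overlapping. In ILC1-like cells Klrc1 with Klrd1 was detected in 17.7%, 17.1% and 20.6% of control and 22.6%, 26.1% and 28.8% of knockout cells, every knockout library being above every control library (exact p = 0.1). Thinned to 1000 UMIs, these shares were 6.36% ± 0.953 and 10.7% ± 0.885, also without overlap, whereas with all UMIs they were 46.8% ± 10.5 and 57.9% ± 4.25 and overlapped. The remaining separated shares were both in CD8 T-like cells and higher in the knockout, Klrc1 with Klrd1 (3.07% ± 1.35 against 4.46% ± 0.336) and Klrc1 with any Ly49 gene (0.0666% against 0.343%). Shares of the classes themselves overlapped between groups, for instance 5.34% ± 1.21 of control and 4.19% ± 0.816 of knockout cells for ILC1-like cells (n = 3 each, exact p = 0.3).

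Other genes of the same receptor system were not called either. Of 18 further Klr genes in the tables, 8 passed the filter in NK-like and 10 in ILC1-like cells, with 0 called in any class by edgeR. Those of highest level in NK-like cells were Klri2, the partner of Klre1, at 268.1 ± 35.5 CPM in control and 277.8 ± 19.4 CPM in knockout, Klrc2 at 138.2 and 147 CPM, Klra9 at 114.1 and 140.9 CPM, and Klrb1b at 86.8 and 76.5 CPM (n = 3 each). Of the 10 in ILC1-like cells, 4 were higher and 6 lower in the knockout, with a median log2 fold change of -0.07. Libraries did not overlap for 3 of the 10, against 12.5% of all genes (7.75% with higher levels in the knockout). All 3 were low Ly49 genes with higher levels in the knockout, named here after their values were seen. They were Klra5 (5.11 ± 1.73 against 15.2 ± 6.45 CPM, log2 fold change 1.62, edgeR adjusted p = 0.184), Klra3 (6.17 against 13.1 CPM, 0.98) and Klra9 (11.5 against 23.4 CPM, 1.01). In CD8 T-like cells 2 of 4 genes past the filter did not overlap, against 9.89% of all genes, and both had an unadjusted p under 0.05, against 5.14%. They were Klrb1f (3.86 ± 0.558 against 6.92 ± 1.06 CPM) and Klrg1 (11.98 ± 4.83 against 18.7 ± 1.23 CPM), higher in the knockout and also named after their values were seen (edgeR adjusted p = 0.943 for each). Of 5 past the filter in NKT-like cells, 1 was higher and 4 lower in the knockout (median log2 fold change -0.71). Of 6 in T cluster 16, 1 was higher and 5 lower (median -0.35). Libraries did not overlap for 0 of these, against 10.5% and 10.2% of all genes.

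Of 22 adaptor and proximal signalling genes, 20 passed the filter in NK-like and 21 in ILC1-like cells and 0 were called by edgeR in either, with 1 and 4 of them under an unadjusted p of 0.05, against 5.7% and 7.77% of all genes. Libraries did not overlap for 2 of the 20 and 5 of the 21, against 10.4% and 12.5% of all genes. Their log2 fold changes had medians of -0.00 and 0.11. The adaptor of the activating Ly49 receptors, Tyrobp, was at 921.5 ± 183.7 CPM in control and 980.1 ± 263.6 CPM in knockout NK-like cells (n = 3 each). Fcer1g and Cd247, adaptors of NKp46, were at 850.3 and 875.5 CPM and at 313 and 295.2 CPM. Hcst, the DAP10 adaptor of NKG2D, was at 317.9 ± 108.1 and 227.2 ± 67.6 CPM with overlapping libraries (log2 fold change -0.54, edgeR adjusted p = 0.80). Of 14 ligand genes, 7 passed in NK-like and 8 in ILC1-like cells, and 0 were called. In NK-like cells the classical class I genes H2-K1 and H2-D1 were at 2231 and 2193 CPM and at 1502 and 1534 CPM in control and knockout, and H2-T23, which encodes Qa-1, was at 141.4 and 119.7 CPM. Ligand levels here are those of the lymphocytes themselves, not of the cells they meet.

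The genes whose level was most like that of Ncr1 over the 30 sums of 5 classes in 6 libraries were Tyrobp (Pearson r = 0.955), Klrb1b (0.950), Lyn (0.949), Fcer1g (0.943) and Car2 (0.938), out of 6249 genes compared. Most like the mean of the 4 Ly49 genes were Foxp4 (0.912), Spag9 (0.897), Oxr1 (0.888), Pik3cb (0.888) and Map4k4 (0.884). These values are descriptions with no p, because the points share libraries and depth and differ mainly by class.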

How the data were processed

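Livers of 3 knockout and 3 control mice were measured as 6 libraries. The authors deposited raw UMI counts per gene and cell barcode, made with Cell Ranger 7.1.0 against mm10, per the submitters' processing notes, which also name Seurat 4.1.1. The p-values measure the spread between these mice. The members and all gene lists were chosen with earlier results of these data known.

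Of 44656 barcodes, those below 300 genes or above 20% mitochondrial UMIs were dropped. Scrublet's scores, called at 0.2644 (the common threshold of the 4 libraries in which the caller worked), removed 938 predicted doublets, leaving 41744 cells. Cells were clustered in scanpy 1.11.5 (3000 variable genes, 40 components, 20 neighbours, Leiden resolution 1.0), giving 35 clusters, and the 19538 T and NK cells again (2000 genes, 30 components, resolution 2.0), giving 30. The Klr genes and Ncr1, 28 genes in all, were left out of both. The naming thresholds and the second resolution were set after cluster values were seen, for example an Eomes UMI in at least 50% of cells for NK-like and at most 10% for ILC1-like. Cells of the unnamed T and NK clusters entered no class.

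Raw UMIs were summed per library and class and tested with edgeR 4.0.16 (TMM, filterByExpr, robust quasi-likelihood, adjusted p under 0.05), the script being checked on simulated counts. Of 100 genes given a 2-fold change there, it called 60 in NK-like, 72 in ILC1-like and 36 in gamma-delta-like cells. It called 55 in NKT-like and 69 in CD8 T-like cells, so a change of this size can be missed. DESeq2 1.42.0, RLE factors, no filter, a replicate block, each library left out, classes gated on transcripts, doublets kept, single clusters, and other thinning depths were alternatives. Replicate numbers are shared between groups, but the labels do not tie them to a litter or day. Same-numbered libraries deviated together with r from -0.047 to 0.344 over the classes, and all 3 were over 0.1 only in CD8 T-like cells (0.15, 0.344 and 0.17), where the block called 3 genes and none of the receptors. Means ± SD are over mice. Limits for 0 counts use 3 counts and cover counting error only.

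The genes named were all 10 receptor genes, the 4 highest other Klr and ligand genes in NK-like cells, all adaptors, and the 5 genes most alike. RefSeq promoters were matched by symbol for 9 of 10 genes, and Klrd1 had no entry. A gene of the marker lists is not reported here.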

Additional observations from a re-analysis of the deposited data

Results flagged for a closer look

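The share of cells with Klrc1 together with any of the 4 Ly49 genes went in opposite directions in 2 classes: every knockout library was below every control library in NK-like cells and above every control library in CD8 T-like cells. In NK-like cells it was 11.7% ± 3.46 in control and 5.92% ± 0.918 in knockout (SD, n = 3 each), and in CD8 T-like cells 0.0666% ± 0.0656 and 0.343% ± 0.133. The changes differed by 6.02 percentage points, and the difference was not tested. The CD8 T-like value rests on 9 of 4464 cells, and with all UMIs the libraries of both classes overlapped. Thinned to 1000 UMIs, the differences were -0.05 percentage points in NK-like and 0.0149 in CD8 T-like cells. With 2 UMIs needed for detection they were -2.34 and 0. The pair was found by searching the separated shares for opposite directions.

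Klra1 and Klra7 were also counted in a T and NK cluster that met no naming rule and enters no comparison. Over its 4 libraries with enough cells, Klra1 averaged 133.4 CPM and Klra7 276.8 CPM, above their NK-like means of 36.0 and 173.7 CPM. Klra4 and Klra8 had no UMI there. The cluster held 170 cells, 55.3% of them from knockout 1 and none from control 3, and was led by pancreatic enzyme transcripts such as Ctrb1, Clps and Prss2.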

How the results depend on the processing

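No receptor gene passed the adjusted threshold under any of 540 alternative fits of 46 log2 fold changes (lowest adjusted p 0.0731, for Klrd1 in CD8 T-like cells with no filter on low counts, where it is 0.943 in the fit reported) or of 80 fits of the interaction (lowest 0.735). The direction was kept in 473 of the 540 fits. Counts of all genes called, where they moved by over 1.5 times, were as follows. In NK-like cells 0 became 1 with DESeq2, 6 with no filter, 3 with the replicate block and 0 to 2 with a library left out (2 without control 3 or without knockout 1). In ILC1-like cells 2 became 20 with DESeq2, 76 with no filter, 16 with the block, 5 with doublets kept, 0 in cluster 0 alone, 0 in cluster 15 alone and 0 to 11 with a library left out (6 without control 1, 11 without knockout 2, 0 without control 3, knockout 1 or knockout 3). In gamma-delta-like cells 3 became 12 with no filter, 14 with transcript gates and 1 to 6 (1 without control 2 or control 3, 6 without knockout 2). In NKT-like cells 0 became 3 with DESeq2, 22 with no filter, 2 with the block and 0 to 2 (2 without control 1, 1 without knockout 1). In CD8 T-like cells 0 became 5 with DESeq2, 66 with no filter and 3 with the block, and 0 with each library left out. In T cluster 16 0 became 9 with no filter, 11 with the block and 0 to 2 (2 without knockout 1, 1 without control 2 or knockout 2), and in the Styk1 T cluster 3 with no filter and 0 to 2 (2 without control 3, 1 without knockout 3). For the interaction 2 became 12 with no filter and 0 to 3 (0 without control 2 or knockout 2). None of these calls was a receptor gene, and the cause was not tested. Signs of log2 fold changes turned as follows, the cause not being tested. With the replicate block they turned for Ncr1 to 0.028 in NK-like cells. With transcript gates they turned for Klra1 to -0.13, Klrc1 to 0.033, Klre1 to 0.016, Klrk1 to 0.029 and Ncr1 to 0.015 in NK-like cells, and for Klra7 to -0.021, Klrc1 to -0.021 and Klrk1 to -0.020 in ILC1-like cells, and for Klrk1 to -0.064 in gamma-delta-like cells, and for Klra1 to 0.11, Klrc1 to 0.24 and Klre1 to 0.17 in NKT-like cells. With doublets kept they turned for Ncr1 to 0.030 in NK-like cells, and for Klra1 to 0.027 in NKT-like cells. In ILC1-like cluster 0 alone they turned for Klrc1 to -0.036 and Klrk1 to -0.021 in ILC1-like cells. In ILC1-like cluster 15 alone they turned for Klra7 to -0.15, Klrb1c to -0.095, Klre1 to -0.056, Klrk1 to -0.11 and Ncr1 to -0.038 in ILC1-like cells. Without CD8 T-like clusters mostly of 1 library they turned for Klrc1 to -0.00067 and Klrk1 to -0.083 in CD8 T-like cells. Leaving out each library in turn also turned signs, over ranges of Klra1 -0.13 to 0.36, Klra4 -0.22 to 0.15, Klra7 -0.35 to 0.22, Klre1 -0.19 to 0.14, Klrk1 -0.13 to 0.092 and Ncr1 -0.40 to 0.61 in NK-like cells; Klra1 -0.051 to 0.85, Klra7 -0.058 to 0.82, Klrc1 -0.043 to 0.098, Klrk1 -0.054 to 0.077 and Ncr1 -0.21 to 0.43 in ILC1-like cells; Klrk1 -0.14 to 0.42 in gamma-delta-like cells; Klra1 -0.62 to 0.0014 and Klra7 -0.15 to 1.33 in NKT-like cells; Klrc1 -0.051 to 0.53, Klre1 -0.16 to 0.33 and Klrk1 -0.11 to 0.53 in CD8 T-like cells; Klra1 -0.50 to 0.055, Klra7 -0.15 to 0.41, Klrb1c -0.54 to 0.087, Klrd1 -0.48 to 0.093 and Ncr1 -2.08 to 0.31 in T cluster 16; Klrd1 -0.32 to 0.23, Klre1 -0.18 to 0.36 and Klrk1 -0.034 to 0.28 in Styk1 T cluster; Klra1 -0.58 to 0.13, Klra4 -4.55 to 1.18, Klra7 -0.81 to 0.030, Klra8 -2.63 to 0.58, Klrd1 -0.042 to 0.12, Klrk1 -0.094 to 0.017 and Ncr1 -0.39 to 0.20 for the interaction. Differences in shares (knockout minus control, percentage points) that moved by over 1 SD were, with thinning to 1000 UMIs, NK-like (2 or more of the 4 Ly49 genes 0.989, Klrc1 with any Ly49 -0.05), ILC1-like (Klrc1 with Klrd1 4.37), NKT-like (Klrc1 with Klrd1 -0.778), CD8 T-like (Klrc1 with Klrd1 0.347, Klrc1 with any Ly49 0.0149); with no thinning, NK-like (Klrc1 with Klrd1 -4.19, Klrc1 with any Ly49 -1.08), ILC1-like (any of the 4 Ly49 genes 2.59, inhibitory with activating Ly49 0.191, Klrc1 with Klrd1 11.1, Klrc1 with any Ly49 2.24), gamma-delta-like (Klrc1 with Klrd1 0.278), NKT-like (Klrc1 with Klrd1 2.31), CD8 T-like (2 or more of the 4 Ly49 genes 0.432, Klrc1 with Klrd1 6.03), T cluster 16 (2 or more of the 4 Ly49 genes -3.88), Styk1 T cluster (2 or more of the 4 Ly49 genes 3.82, Klrc1 with Klrd1 -1.89, neither Klrc1 nor Ly49 -4.14); with 2 UMIs needed for detection, NK-like (Klrc1 with Klrd1 0.901, Klrc1 with any Ly49 -2.34, neither Klrc1 nor Ly49 4.46), ILC1-like (Klrc1 with Klrd1 2.52, Klrc1 with any Ly49 -0.0084), CD8 T-like (Klrc1 with Klrd1 0.275, Klrc1 with any Ly49 0), T cluster 16 (Klrc1 with any Ly49 -0.997); with T and NK cells as denominator, ILC1-like (class share -2.42), NKT-like (class share 4.47); with transcript gates, gamma-delta-like (class share 0.233). NK-like values rest on 41 to 121 cells and 279299 to 817299 UMIs per library. Same-numbered libraries share only a number, so calls with the block are not read as pairing. The alternatives on CD8 T-like and ILC1-like clusters and T cluster 16 and the Styk1 T cluster were chosen after seeing the data.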

Other observations

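Receptor transcripts in endothelial-like cells belong to no comparison above. Klrk1 was counted there at 8.43, 11.9 and 11.9 CPM in control and 2.99, 5.997 and 6.07 CPM in knockout libraries, without overlap. The log2 fold change was -1.17 (SE 0.31, edgeR adjusted p = 0.751), where 13.8% of 12220 genes did not overlap. Klrk1 was at 1.21 CPM in B-like cells, and the 224 Klrk1 UMIs of endothelial-like cells were 0.991% of all Klrk1 UMIs in kept cells. Klrc1, Klrd1 and Klre1 passed the filter in endothelial-like cells as well, at 3.45, 6.43 and 3.46 CPM in control and 1.95, 4.38 and 2.42 CPM in knockout, with overlapping libraries. The part of free RNA in these values was not tested.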
